A study of Mus musculus with 8 samples.

Results

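The genes of fatty acid oxidation were followed in mouse macrophages: 35 genes for the activation of fatty acids, carnitine transfer, beta-oxidation in mitochondria and peroxisomes, and the PPAR regulators other than Pparg. They were chosen by symbol, and 34 of the 35 are in both of the authors' deposited tables, of 14485 genes in either. The exception is Ppara, which is in neither. Macrophages were grown for 7 days in 30% conditioned medium of L929 cells, a fibroblast line that supplies the growth factor M-CSF, from the bone marrow of female mice aged 12 weeks, either wild type (WT) or lacking NF-κB-inducing kinase by knockout (NIK KO). After replating in 5% of that medium, cells were held for 6 hours in PBS or in interleukin 4 (IL-4) at 20 ng/mL. This gave 4 groups of 2 libraries: WT with PBS, NIK KO with PBS, WT with IL-4 and NIK KO with IL-4. The numbers in the sample titles recur across treatments, so the same 4 mice appear under both. The sources used here do not give the strain, or which part of the NIK gene was removed in which cells.

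Beta-oxidation shortens fatty acids by repeated rounds of dehydrogenation, hydration, a further dehydrogenation and cleavage. Long chains are first joined to coenzyme A, pass into mitochondria as carnitine esters, and give up electrons to the respiratory chain through the electron transfer flavoprotein. Peroxisomes begin the oxidation of very long and branched chains. In macrophages, IL-4 drives alternative activation, a state known for a larger use of fatty acids as fuel, and PPAR receptors are nuclear receptors that bind fatty acids and act on many of these genes.

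Each of the authors' deposited tables compares the genotypes under 1 treatment and gives 1 value per gene, so no value per library is shown here and library depths are unknown. NIK KO and WT means were recovered from the deposited base mean and fold change. Map3k14, the gene of NIK, had means of 425 in WT against 902 in NIK KO with PBS, and of 418 against 832 with IL-4, so its mean was the higher one in libraries labelled NIK KO (1.09 ± 0.28 and 0.99 ± 0.22 on the log2 scale in the authors' deposited tables). If the tables ran the other way, every sign of NIK KO over WT given here would turn, and group means, sums and shares of WT and NIK KO would trade places, while ratios of IL-4 over PBS in the mean of both genotypes would stay as they are. Adgre1, Csf1r, Cd68 and Itgam, defining macrophage markers, were all listed. Of 12 macrophage markers 9 were above 0 in each table, and an unadjusted DESeq2 p under 0.05 was reached, on the higher side, by Ccr2 with PBS and by Adgre1, Ccr2 and C5ar1 with IL-4 (0.54 ± 0.18, 0.66 ± 0.24 and 0.38 ± 0.17 in the authors' deposited table). With IL-4 the other 3 were below 0, Lyz2 at -0.22 ± 0.15, Cd14 at -0.17 ± 0.64 and Cd68 at -0.02 ± 0.15. The summed level of the 12 with IL-4, mostly Lyz2, was 525146 in WT and 503604 in NIK KO. T and B cell markers had 2 of 10 genes listed with PBS and 3 with IL-4. Neutrophil markers were below 0 in 6 of 10 listed with PBS and 5 of 8 with IL-4. Of these, Mmp8 with PBS (-0.63 ± 0.28) and S100a8 with IL-4 (-0.80 ± 0.40) had an unadjusted DESeq2 p under 0.05. The other 3 listed with IL-4 were above 0, among them Csf3r, the most abundant, at 0.46 ± 0.25. The summed level of the neutrophil markers, mostly Csf3r with IL-4, was 2934 in WT and 3444 in NIK KO with IL-4. With PBS it was 1562.5 in WT and 1331 in NIK KO. In the IL-4 table, 10 of 11 listed fibroblast markers were below 0 in the libraries labelled NIK KO, with a summed level of 1055 in WT and 467 in NIK KO, against 244 and 222 with PBS. With IL-4, 6 of the 11 had an unadjusted DESeq2 p under 0.05, all lower. Of these, 1 was called, Col3a1 at -2.34 ± 0.53 (DESeq2 adjusted p = 0.0107), where 0.12% of all genes were. The 1 marker above 0 was Pdgfrb at 0.26 ± 0.84. With PBS 5 of 10 were below 0, and 0 had such a p. The fibroblast marker Thy1 was in neither table. Of 7 listed erythroid markers with IL-4, the 4 hemoglobin genes were lower with an unadjusted DESeq2 p under 0.05, the lowest being Hbb-bt at -2.15 ± 0.75 in the authors' deposited table. The other 3 were above 0 there, Tfrc at 0.29 ± 0.19, Alas2 at 0.13 ± 1.93 and Slc4a1 at 0.22 ± 1.88, and the summed level, mostly Tfrc, was 5309 in WT and 6244 in NIK KO.

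The genotypes did not differ detectably in any of these genes. With PBS, 0 of 34 members were called at an adjusted p under 0.05 (Wald test of DESeq2 by the authors, Benjamini-Hochberg adjusted over all genes), where 0.0366% of 13676 genes were, and 0 of 34 had an unadjusted p under 0.05, where 1.24% of genes did. With IL-4, 0 of 34 were called, where 0.12% of 14193 genes were, and 0 had an unadjusted DESeq2 p under 0.05, where 2.95% of genes did. The smallest unadjusted DESeq2 p was 0.110 with PBS (Ppard) and 0.156 with IL-4 (Pnpla2), and every adjusted p was 1.00. In bulk RNA, fewer cells of a type and less RNA per cell cannot be told apart.

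The size that these data can bound differed by treatment. The 95% Wald interval, taken from the authors' deposited standard error, lay within a 2-fold change either way for 29 of 34 members with PBS and 30 with IL-4. Within 1.5-fold lay 4 members with PBS and 22 with IL-4. All of these had a base mean of 100 or more, as 31 members did. Among all genes of that level, 87.3% and 92.8% lay within 2-fold, and 14.6% and 50.1% within 1.5-fold. The members not within 2-fold were Cpt1b, Acad10, Acsl3, Ehhadh and Ppard with PBS, and Cpt1b, Acad10, Acsl1 and Ehhadh with IL-4. Acad10, Ehhadh and Cpt1b were the 3 members under a base mean of 100.

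By sign, 21 of 34 members were above 0 and 13 below with PBS (median 0.05), and 12 above and 22 below with IL-4 (median -0.07), where 51.7% and 51.1% of all genes were below 0. From PBS to IL-4 the value was lower in 16 of the 21 mitochondrial enzymes counted next, where it was lower in 49.4% of genes of base mean 100 or more in both tables. The signs are given by compartment as a description. Of 21 mitochondrial enzymes of base mean 100 or more, 17 were below 0 with IL-4 and 7 with PBS (medians -0.09 and 0.04), where 47.2% and 49.9% of genes of that level were. Of the 10 other members of that level, 3 were below 0 with IL-4 and 3 with PBS. Among all genes of that level with IL-4, the 2376 shortest transcripts had a median of -0.10 and the 2376 longest one of 0.12. After a running median on transcript length was subtracted, a step chosen for these enzymes after seeing the data, 14 of the 21 were below 0 and their median was -0.04. In the same libraries most fibroblast markers and the hemoglobin genes were lower. Of 12 macrophage markers 9 were above 0, while their summed level was lower in NIK KO, as given above. The part of these markers in the signs was not tested. The sum over all 34 members was 42511 in WT and 42514 in NIK KO with IL-4, and 34788 and 36359 with PBS.

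**Figure D1:**
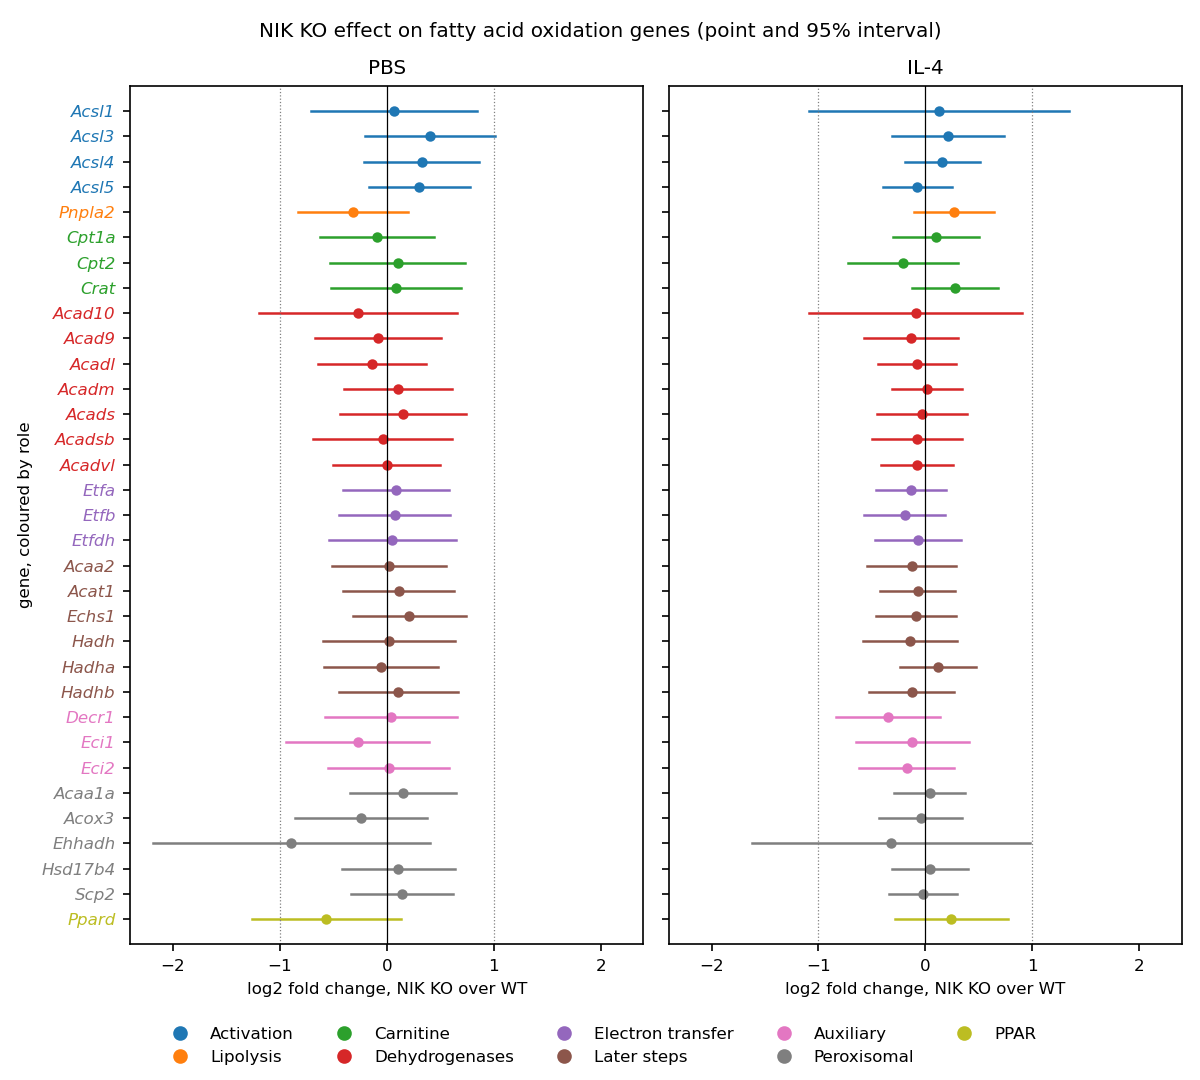
Log2 fold change of NIK KO over WT (x axis) for 33 of the 34 members (y axis, coloured by role), with PBS on the left and IL-4 on the right; points are the authors' deposited values, bars are 95% Wald intervals and dotted lines mark a 2-fold change. Every bar crosses 0, and the bars are shorter with IL-4 except for Acad10, Acsl1 and Ehhadh. Cpt1b, whose interval is wider than the axis, is left out.

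Acyl-CoA synthetases of long chains, which activate fatty acids, were all above 0 with PBS in the libraries labelled NIK KO, and none was called. The authors' deposited table with PBS gives Acsl3 at 0.40 ± 0.31, Acsl4, which favours arachidonic acid, at 0.33 ± 0.27, and Acsl5 at 0.30 ± 0.24 (unadjusted DESeq2 p = 0.194, 0.233 and 0.211). They were the 3 highest members of base mean 100 or more with PBS. In Acsl3, mean normalized counts were 282 in WT and 373 in NIK KO with PBS, and 264 and 306 with IL-4. In Acsl4, mean normalized counts were 1498 in WT and 1879 in NIK KO with PBS, and 1616 and 1806 with IL-4. In Acsl5, mean normalized counts were 2406 in WT and 2965 in NIK KO with PBS, and 3436 and 3259 with IL-4. In these 3 genes the NIK KO mean with PBS stood above the WT mean, and with IL-4 that was so for Acsl3 and Acsl4. With IL-4 the authors' deposited table has them at 0.21 ± 0.27, 0.16 ± 0.18 and -0.08 ± 0.16.

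Acsl1, the family member whose product serves both oxidation and lipid storage, had close group means and the widest error of the members at its level. In Acsl1, mean normalized counts were 2336 in WT and 2452 in NIK KO with PBS, and 1753 and 1911 with IL-4. The authors' deposited tables give 0.07 ± 0.40 with PBS against 0.12 ± 0.62 with IL-4. With IL-4 its 95% interval ran from 0.47-fold to 2.53-fold. With IL-4, among the 3581 genes whose base mean was 1000 or more, the standard error of Acsl1 was the 17th highest at 0.62, where the median was 0.18, and the other members at that level did not pass 0.21 (Crat). With PBS it was the 29th of 2938 at 0.40, and Acox3 came next among the members at 0.31. The values per library behind this spread are not analysed here.

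**Figure D2:**
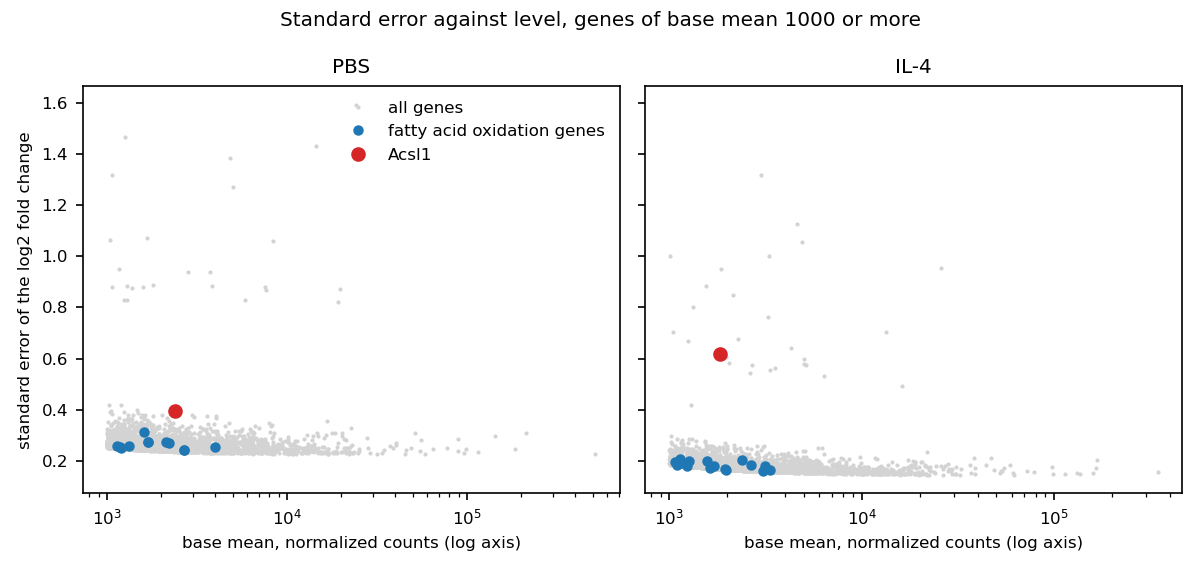
Standard error of the log2 fold change (y axis) against base mean in normalized counts (x axis, log scale), for genes whose base mean is 1000 or more, PBS on the left and IL-4 on the right; grey points are all genes, blue points the members and the red point Acsl1. With IL-4 Acsl1 stands at 0.62, apart from the other members, which stay at or below 0.21.

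Per kilobase of transcript, Acsl5 and Acsl1 made up most of this family in every group. In WT with PBS Acsl1 held 39.4% and Acsl5 37.3% of the family's normalized counts per kilobase, and with IL-4 they held 27.6% and 49.6%. In NIK KO the shares were 35.4% and 39.3% with PBS and 29.2% and 45.8% with IL-4. Acsl5 thus took the larger share with IL-4 in both genotypes, in group means without an error.

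Pnpla2, the lipase that starts the release of fatty acids from stored triglyceride, and Ppard, the PPAR of wide tissue range, showed the same order of group means. In Ppard, mean normalized counts were 334 in WT and 226 in NIK KO with PBS, and 274 and 324 with IL-4. In Pnpla2, mean normalized counts were 947 in WT and 761 in NIK KO with PBS, and 1043 and 1257 with IL-4. In both genes the NIK KO mean was the lower with PBS and the higher with IL-4. Of the 31 members of base mean 100 or more, 4 had that order, Cpt1a and Hadha being the others. The share of all genes with that order was not counted. The authors' deposited tables give Ppard at -0.57 ± 0.35 with PBS against 0.24 ± 0.27 with IL-4 (unadjusted DESeq2 p = 0.11 and 0.37), and Pnpla2 at -0.32 ± 0.26 with PBS against 0.27 ± 0.19 with IL-4 (p = 0.227 and 0.156). Ppard and Pnpla2 had the lowest values with PBS among members of base mean 100 or more, and with IL-4 only Crat was higher than them.

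Whether the genotype difference itself changed between treatments was tested from the DESeq2 estimates with a two-sided z test, which divides the difference of both fold changes by its standard error. By this z test on DESeq2 estimates, Ppard differed by 0.81 ± 0.45 (z = 1.81), Pnpla2 by 0.59 ± 0.32 (z = 1.81) and Acsl5 by -0.38 ± 0.29 (z = -1.30), the 3 members with the largest z. The Benjamini-Hochberg adjusted p over all genes was 1.00 for each. Of the 34 members, 0 were called and 0 had an unadjusted p under 0.05 by this z test, where 0.0149% and 0.867% of 13384 genes did. The test takes the errors of both tables as independent although the mice are shared. With an error correlation of 0.5, Ppard and Pnpla2 were the 2 members with an unadjusted p under 0.05 by this z test and remained uncalled. That setting lowers the p of every gene. The share of all genes under 0.05 with it is not given here, so these 2 members are not set apart by it.

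The 250 bases before the transcript start of these 2 genes (RefSeq, GRCm38.p6) are shown because their group means had the same order, as those of Cpt1a and Hadha also did. Ppard lies on chromosome 17 (chr17:28232504-28232753, plus strand) and Pnpla2 on chromosome 7 (chr7:141454938-141455187, plus strand). Capitals mark the GC box GGGCGG on either strand.
Ppard: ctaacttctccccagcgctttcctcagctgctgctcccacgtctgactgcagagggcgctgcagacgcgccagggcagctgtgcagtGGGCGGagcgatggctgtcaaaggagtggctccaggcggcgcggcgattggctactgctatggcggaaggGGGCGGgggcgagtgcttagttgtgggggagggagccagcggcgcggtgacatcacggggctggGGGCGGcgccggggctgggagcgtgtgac
Pnpla2: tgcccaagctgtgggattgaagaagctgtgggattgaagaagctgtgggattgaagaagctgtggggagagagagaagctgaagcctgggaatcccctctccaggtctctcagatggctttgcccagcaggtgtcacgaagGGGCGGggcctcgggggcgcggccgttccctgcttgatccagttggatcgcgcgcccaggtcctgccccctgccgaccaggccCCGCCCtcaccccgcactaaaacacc
Ppard holds 3 GC boxes and Pnpla2 holds 2. The window from 250 bases before to 50 after the start was searched on both strands in the 28 members with a RefSeq entry, Ppara among them. A member counted if any of its windows held the site. Shares of all are per window and also cover genes outside both tables, so the units differ. A GC box was in 23 of the 28 and in 35.7% of all 32851 such windows. The PPAR element DR1, searched as a pair of AGGTCA repeats with 1 base between, was in 0 of the 28 and in 0.0396% of all windows. The estrogen-related receptor element TCAAGGTCA was in 0 of the 28 and in 0.423% of all. The NRF1 element, searched as GCGC, any 2 bases and GCGC, was in 4 (Acad10, Etfb, Etfdh and Ppara) and in 6.23% of all.

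The carnitine shuttle carries long chains into mitochondria. Cpt1a, the step held back by malonyl-CoA and the rate-setting enzyme of the pathway, had close group means under both treatments. In Cpt1a, mean normalized counts were 2208 in WT and 2073 in NIK KO with PBS, and 2301 and 2465 with IL-4. The authors' deposited tables give -0.09 ± 0.27 with PBS against 0.10 ± 0.20 with IL-4, with 95% intervals of 0.649-fold to 1.36-fold and 0.813-fold to 1.41-fold. Cpt1a made up between 99.3% and 99.8% of the Cpt1 pair per kilobase in every group, and the muscle form Cpt1b had at most 12.0 normalized counts. Cpt1b also shares 93.7% of its 31-base words with the overlapping model Gm44502.

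Cpt2, which returns the chain to coenzyme A inside, had the second lowest value with IL-4 among members of base mean 100 or more. In Cpt2, mean normalized counts were 235 in WT and 253 in NIK KO with PBS, and 328 and 283 with IL-4. The authors' deposited tables give 0.10 ± 0.32 with PBS against -0.21 ± 0.26 with IL-4, and the 95% interval with IL-4 ran from 0.607-fold to 1.23-fold. Crat, which makes acetylcarnitine, had the highest value with IL-4 among members of base mean 100 or more. In Crat, mean normalized counts were 720.1 in WT and 764 in NIK KO with PBS, and 1022 and 1239 with IL-4. The authors' deposited tables give it at 0.08 ± 0.31 with PBS against 0.28 ± 0.21 with IL-4 (unadjusted DESeq2 p = 0.784 and 0.177).

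Acyl-CoA dehydrogenases open each round, and each prefers a range of chain lengths. In 6 of 7 the value with IL-4 was below 0, and in 5 of 7 with PBS, and the members of base mean 100 or more stayed between -0.14 (Acadl, PBS) and 0.15 (Acads, PBS) in the authors' deposited tables. In Acadvl, mean normalized counts were 1177 in WT and 1175 in NIK KO with PBS, and 1669 and 1585 with IL-4. This gene, for very long chains, was at -0.0015 ± 0.25 with PBS against -0.07 ± 0.17 with IL-4 in the authors' deposited tables, and 32.7% of its 31-base words also occur in the neighbouring gene Dvl2. In Acadm, mean normalized counts were 1275 in WT and 1369 in NIK KO with PBS, and 1946 and 1968 with IL-4. The authors' deposited tables give this medium-chain enzyme at 0.10 ± 0.26 with PBS against 0.02 ± 0.17 with IL-4, with an interval of 0.806-fold to 1.27-fold with IL-4. In Acadl, mean normalized counts were 1196 in WT and 1085 in NIK KO with PBS, and 1120.2 and 1061 with IL-4. The long-chain gene Acadl was at -0.14 ± 0.26 with PBS against -0.08 ± 0.18 with IL-4 in the authors' deposited tables. Acads, Acadsb and Acad9 were within the same bounds, and Acad10 was scarce, at 75.7 in WT and 71.2 in NIK KO with IL-4.

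Acadm is the member with a single nuclear receptor site, AAGGTCA (also the end of TCAAGGTCA), in its start window, which 4.72% of all windows hold, and its 250 bases before the start (RefSeq, GRCm38.p6, chr3:153944644-153944893, minus strand) are shown for that reason. The capitals mark that site, read here on the opposite strand.
Acadm: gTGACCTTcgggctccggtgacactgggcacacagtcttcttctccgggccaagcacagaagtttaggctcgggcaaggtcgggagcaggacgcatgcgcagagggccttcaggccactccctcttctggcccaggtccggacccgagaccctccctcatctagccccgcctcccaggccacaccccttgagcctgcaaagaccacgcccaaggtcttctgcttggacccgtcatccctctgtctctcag
The region was not measured in these data, and the match is a description of the sequence.

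The electron transfer flavoprotein takes electrons from all of these dehydrogenases and passes them to Etfdh, its ubiquinone oxidoreductase. All 3 genes were above 0 with PBS and below 0 with IL-4 in libraries labelled NIK KO. In Etfa, mean normalized counts were 1164 in WT and 1236 in NIK KO with PBS, and 2066 and 1883 with IL-4. In Etfb, mean normalized counts were 911 in WT and 958 in NIK KO with PBS, and 1136 and 993 with IL-4. In Etfdh, mean normalized counts were 534 in WT and 553 in NIK KO with PBS, and 814 and 776 with IL-4. The authors' deposited tables give Etfa at 0.09 ± 0.25 with PBS against -0.13 ± 0.17 with IL-4, Etfb at 0.07 ± 0.27 with PBS against -0.19 ± 0.19 with IL-4 and Etfdh at 0.05 ± 0.30 with PBS against -0.07 ± 0.21 with IL-4. These changes of sign were within their errors (z = -0.73, -0.81 and -0.33 by the z test between treatments). Etfb shares 68.0% of its 31-base words with the model Gm45233, which is in neither table. Per kilobase, Etfa held 45.1% of the Etfa and Etfb pair in WT with PBS and 53.8% with IL-4, and in NIK KO 45.3% and 54.9%.

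The later steps of the mitochondrial rounds include Hadha and Hadhb, the subunits of the trifunctional protein for long chains. In Hadha, mean normalized counts were 1728 in WT and 1661 in NIK KO with PBS, and 2559 and 2779 with IL-4. In Hadhb, mean normalized counts were 679 in WT and 731 in NIK KO with PBS, and 1327 and 1214 with IL-4. The authors' deposited tables give Hadha at -0.06 ± 0.27 with PBS against 0.12 ± 0.18 with IL-4 and Hadhb at 0.11 ± 0.28 with PBS against -0.13 ± 0.20 with IL-4, so the subunits took opposite signs in both tables, within their errors. Their levels per kilobase were close, with Hadha at 56.5% of the pair in WT with PBS, 53.7% in NIK KO with PBS, 49.6% in WT with IL-4 and 53.9% in NIK KO with IL-4.

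The genes of these subunits face away from each other on chromosome 5, with 273 bases between their starts in RefSeq (GRCm38.p6). The 250 bases before Hadhb (chr5:30155003-30155252, plus strand), which lie between the starts, are shown because this stretch separates the starts of both genes. Capitals mark the GC box GGGCGG.
Hadhb: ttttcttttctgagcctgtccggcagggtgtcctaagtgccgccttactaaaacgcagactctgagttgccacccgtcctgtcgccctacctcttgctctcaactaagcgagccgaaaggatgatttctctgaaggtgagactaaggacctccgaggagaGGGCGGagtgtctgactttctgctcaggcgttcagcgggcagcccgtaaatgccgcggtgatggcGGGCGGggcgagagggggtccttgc
It holds 2 GC boxes and 58.8% G and C.

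The matrix also holds enzymes for shorter chains. Echs1 (hydratase), Hadh (dehydrogenase), Acaa2 (thiolase) and Acat1, which acts on acetoacetyl-CoA, were above 0 with PBS and below 0 with IL-4 in libraries labelled NIK KO, each within its error. With IL-4 the authors' deposited table puts them at -0.09 ± 0.19, -0.14 ± 0.23, -0.13 ± 0.21 and -0.07 ± 0.18, and with PBS at 0.21 ± 0.27, 0.02 ± 0.32, 0.02 ± 0.27 and 0.11 ± 0.26. Auxiliary enzymes handle double bonds. Decr1, the dienoyl-CoA reductase, had the lowest value with IL-4 among members of base mean 100 or more. In Decr1, mean normalized counts were 259 in WT and 266 in NIK KO with PBS, and 403 and 316 with IL-4. The authors' deposited tables give Decr1 at 0.04 ± 0.32 with PBS against -0.35 ± 0.25 with IL-4 (unadjusted DESeq2 p with IL-4 = 0.162), and its interval with IL-4 ran from 0.559-fold to 1.1-fold. The isomerase Eci1 was at -0.27 ± 0.34 with PBS against -0.12 ± 0.27 with IL-4 and Eci2 at 0.02 ± 0.29 with PBS against -0.18 ± 0.23 with IL-4 in the authors' deposited tables.

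Peroxisomal members were among the most abundant per kilobase, and none was called. Acaa1a, the peroxisomal thiolase, ranked first of the 34 in WT under both treatments, at 2155 normalized counts per kilobase with PBS and 1749 with IL-4. In Acaa1a, mean normalized counts were 3797 in WT and 4223 in NIK KO with PBS, and 3082 and 3167 with IL-4. In Hsd17b4, mean normalized counts were 2135 in WT and 2303 in NIK KO with PBS, and 3079 and 3174 with IL-4. Hsd17b4 is the bifunctional enzyme of the branched-chain route, and Scp2, a thiolase and sterol carrier, shares 45.4% of its 31-base words with its pseudogene Scp2-ps2. Acaa1a shares 21.7% of its words with other genes, Acaa1b among them, which is in neither table. The authors' deposited tables give Acaa1a at 0.15 ± 0.25 with PBS against 0.04 ± 0.17 with IL-4, Hsd17b4 at 0.11 ± 0.27 with PBS against 0.04 ± 0.18 with IL-4 and Scp2 at 0.14 ± 0.24 with PBS against -0.02 ± 0.16 with IL-4. Acox3, an oxidase of branched chains, was at -0.24 ± 0.31 with PBS against -0.04 ± 0.20 with IL-4 in the authors' deposited tables. In Acox3, mean normalized counts were 1732 in WT and 1465 in NIK KO with PBS, and 1592 and 1545 with IL-4. Ehhadh, the other bifunctional enzyme, was scarce and uncertain. In Ehhadh, mean normalized counts were 44.9 in WT and 24.2 in NIK KO with PBS, and 38.9 and 31.1 with IL-4. The authors' deposited tables give Ehhadh at -0.89 ± 0.66 with PBS against -0.33 ± 0.66 with IL-4.

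**Figure D3:**
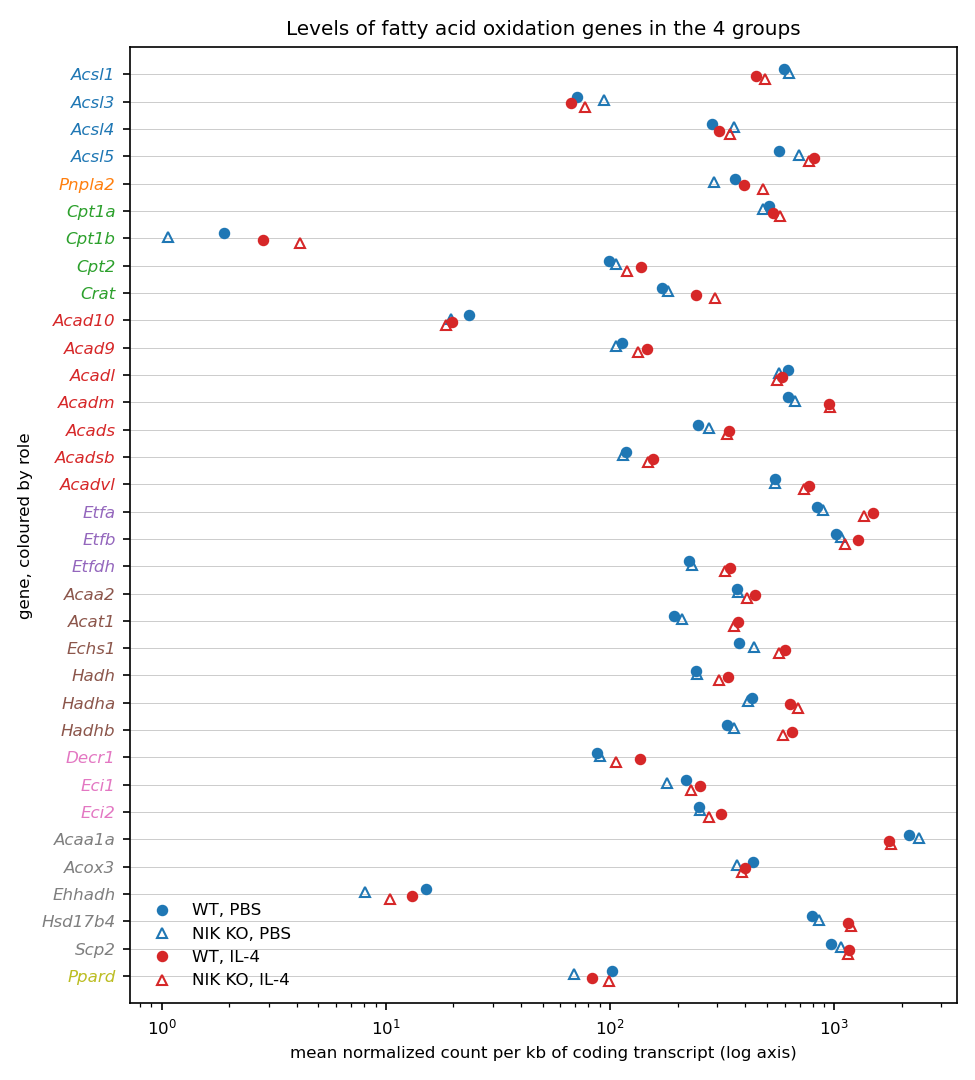
Mean normalized count per kilobase of the longest coding transcript (x axis, log scale) of the 34 members (y axis, coloured by role as in the plot of fold changes), for WT (filled circles) and NIK KO (open triangles) with PBS (blue) and IL-4 (red); points are group means of 2 mice, without an error. Levels run from 1.07 for Cpt1b to 2397 for Acaa1a, both in NIK KO with PBS. The genotypes of a treatment lie close together for most members. Further apart with PBS are Ehhadh (15.1 in WT and 8.12 in NIK KO), Cpt1b (1.91 and 1.07) and Ppard (102 and 68.9).

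Levels with IL-4 were set beside levels with PBS within each genotype. The tables were normalized separately, so each ratio was taken relative to the median of the 13384 genes in both tables (0.27 on the log2 scale in WT and 0.27 in NIK KO), and no test was made. An approximate error was formed from the deposited standard errors, taking an equal part of the squared error as belonging to each genotype. It takes the PBS and IL-4 libraries as independent although the mice are shared. Mitochondrial enzymes stood on the higher side with IL-4. Of the 21 of base mean 100 or more, 12 were above the median gene in both genotypes and 2 were below in both (Cpt1a and Acadl), where 37.6% and 37.2% of genes of that level were. Of the other 10 members, 1 was above in both (Hsd17b4) and 5 below in both.

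Acat1, Hadhb and Etfa stood highest in the mean of both genotypes among members of base mean 100 or more. Acat1 was at 0.68 in WT and 0.49 in NIK KO, 0.59 ± 0.16 in the mean. Its counts were 659 and 1272 in WT with PBS and IL-4, and 712 and 1210.1 in NIK KO. Hadhb was at 0.70 in WT and 0.46 in NIK KO (0.58 ± 0.17), and Etfa at 0.56 in WT and 0.34 in NIK KO (0.45 ± 0.15). Of the 31 members of that level 0 were above 1.5-fold in both genotypes, where 4.5% of genes were. In both genotypes 0 were above or below 2-fold, where 1.73% and 1.38% were. With 31 members, these counts do not set the members apart from all genes. In WT, Acat1 and Hadhb were above 1.5-fold. Hadha (0.39 ± 0.16), Crat (0.33 ± 0.19), Acadm (0.30 ± 0.15) and Etfdh (0.28 ± 0.18) followed.

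On the lower side were Acsl1 at -0.68 in WT and -0.63 in NIK KO (-0.66 ± 0.37), Acaa1a at -0.57 in WT and -0.69 in NIK KO (-0.63 ± 0.15) and Acsl3 at -0.36 in WT and -0.56 in NIK KO (-0.46 ± 0.20). Acsl1 was the 1 member of that level below 1.5-fold in both genotypes, where 4.96% of genes were, and its error was the widest of the 3. Acaa1a thus stayed the most abundant member per kilobase while it was the one furthest below the median gene relative to that approximate error, which is not a test. Cpt1a was near the median gene (-0.11 ± 0.17), and Acadl, unlike the other abundant dehydrogenases, was below it (-0.33 ± 0.16), with Acadm and Acadvl above it (0.30 ± 0.15 and 0.20 ± 0.15). Ppard and Pnpla2 went apart by genotype: -0.56 in WT and 0.25 in NIK KO for Ppard, and -0.13 in WT and 0.45 in NIK KO for Pnpla2, which is the difference between treatments tested above.

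**Figure D4:**
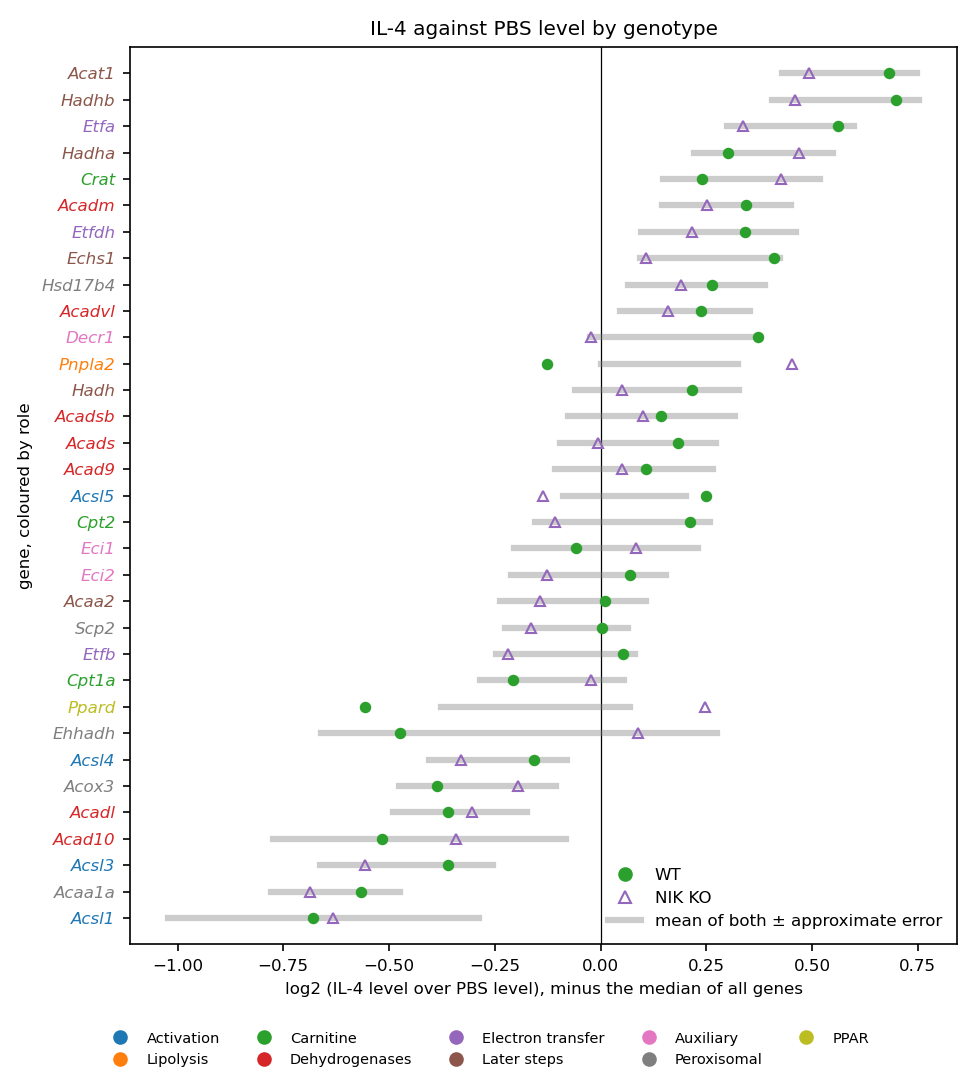
Log2 of the IL-4 level over the PBS level, minus the median of all genes (x axis), for 33 members (y axis, coloured by role) in WT (filled green circles) and NIK KO (open purple triangles); the grey bar is the mean of both ± the approximate error. In the mean of both genotypes Acat1 (0.59) and Hadhb (0.58) are highest and Acsl1 (-0.66) and Acaa1a (-0.63) lowest among members of base mean 100 or more, while Ppard and Pnpla2 lie on opposite sides of 0 in the 2 genotypes. Cpt1b is left out.

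Other genes of the pathway, taken from 7 lists, were likewise not called. Of 108 genes outside the 34, 91 were listed with PBS and 93 with IL-4, and 0 were called by DESeq2 in either table, where 0.0366% and 0.12% of all genes were. With PBS 39 were above 0 and 52 below (median -0.04), and with IL-4 43 and 50 (median -0.02). Of these, 1 gene with PBS, and 0 with IL-4, had an unadjusted DESeq2 p under 0.05: Slc27a3, a fatty acid transporter, at -2.14 ± 0.82 with PBS (p = 0.00880) in the authors' deposited table, with 39.7 normalized counts in WT and 9.0 in NIK KO, and at -0.23 ± 0.65 with IL-4. With 1.24% and 2.95% of all genes at such a p, 1 of 91 with PBS and 0 of 93 with IL-4 are not counts that set these genes apart. Acaca, acetyl-CoA carboxylase, whose product malonyl-CoA restrains Cpt1a, was the lowest of the carnitine and malonyl-CoA list with PBS (-0.37 ± 0.37) and its highest with IL-4 (0.52 ± 0.29, p = 0.069) in the authors' deposited tables. Its means were 406 in WT and 314 in NIK KO with PBS, and 423 and 606 with IL-4, the same order as in Ppard and Pnpla2 (z = 1.91 by the z test between treatments, adjusted p = 1.00).

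In the list of other mitochondrial acyl-CoA enzymes 15 of 21 were below 0 with PBS and 14 with IL-4 (median -0.17 in each). Its lowest genes of base mean 100 or more were Pcca, of propionyl-CoA carboxylase, with PBS (-0.42 ± 0.32) and Acot13, an acyl-CoA thioesterase, with IL-4 (-0.35 ± 0.26), in the authors' deposited tables. Peroxins, which build peroxisomes, had 8 of 16 below 0 with PBS and 9 with IL-4. The other peroxisomal oxidation genes had 8 of 12 and 6 of 12 below 0. PPAR partners and targets had 9 of 12 above 0 with PBS and 10 of 13 with IL-4, with the lipid droplet coat gene Plin2 at 0.35 ± 0.24 and 0.25 ± 0.15 in the authors' deposited tables (unadjusted DESeq2 p = 0.147 and 0.0925). Pparg, the receptor of alternative activation, was at 0.31 ± 0.35 and 0.16 ± 0.26 in the authors' deposited tables.

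Among the synthetases and transporters, 8 of 13 were below 0 with PBS and 7 of 14 with IL-4, and the fatty acid receptor gene Cd36 was at -0.02 ± 0.24 and 0.12 ± 0.17 in the authors' deposited tables. Of other lipolysis and lipid droplet genes 5 of 8 were above 0 with PBS and 6 of 8 with IL-4. Abhd5, the co-activator of the lipase encoded by Pnpla2, was at -0.26 ± 0.27 and 0.25 ± 0.22 in the authors' deposited tables, below 0 with PBS and above 0 with IL-4 as Pnpla2 was. Slc25a20, the carnitine carrier of the inner membrane, was at 0.07 ± 0.26 and -0.06 ± 0.20 in the authors' deposited tables. Pparg and Cd36 were named for their known roles and outside the rule for named genes, after their values were seen.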

How the data were processed

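The authors deposited 1 table of per-gene results for each treatment. Salmon 1.4.0, DESeq2 1.32.0 and GRCm39 are named per the submitters' processing notes, with no role stated for each. Per the file headers, each table gives the base mean, a signal of counts divided by size factors and averaged over libraries. Per the file headers it also gives the log2 fold change with its error (log2 too), the Wald statistic (a score), and the p-value with its adjusted p-value. The statistic equals fold change over error in both tables, so the deposited log2 values were not shrunken afterwards. Both tables were read as NIK KO over WT, the direction that the IL-4 table's name gives.

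Group means were recovered from base mean and fold change, since groups are of equal size. Lengths and shared 31-base words come from GENCODE M21 (GRCm38), not the authors' build. Levels per kilobase use the longest coding transcript, and the length trend is a running median over 501 genes. The z test and the trend were run on simulated data. The errors of both tables were drawn independently there, so the effect of the shared mice was not examined. Named in full are members at an unadjusted p under 0.05, the 3 highest and 3 lowest of base mean 100 or more in each table, the 3 largest differences between treatments and a set of defining enzymes. Members, lists and rules were chosen with earlier results of these data known. Python 3.11.15, numpy 2.4.6, pandas 2.3.3, scipy 1.17.1 and matplotlib 3.10.9 were used.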

Additional observations from a re-analysis of the deposited data

How the results depend on the processing

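None of the 34 members was called in either table or in the difference between treatments when the adjustment covered genes of base mean 100 or more, when fold changes were centred on those genes, when a trend on transcript length was subtracted, at an adjusted p under 0.10, or with an error correlation of 0.5, each where it applied. Counts over all genes moved more. With IL-4, 17 genes were called and 9 when adjusted over base mean 100 or more. In the difference between treatments 2 were called, 20 with an error correlation of 0.5 and 0 when adjusted over base mean 100 or more. Subtracting the length trend turned the sign of Acadvl with PBS (0.0018) and of Acads (0.019), Eci1 (0.018) and Etfb (0.0094) with IL-4, each close to 0. Without centring, the median IL-4 over PBS ratio of the members was 0.39 in WT and 0.32 in NIK KO, against 0.12 and 0.05 with it, and 28 members in NIK KO were above 0, against 18. No paired analysis was possible because the tables hold no values per library, and for the same reason no library could be left out in turn. Depth per library is unknown, so the standard errors alone set what could be seen.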

Other observations

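Several genes of the other lists stood further from the median gene between IL-4 and PBS than any member of base mean 100 or more did. They are named after their values were seen, and the levels come from tables normalized separately, relative to the median gene, with no test. Of 71 such genes with a base mean of 100 or more in both tables, 4 were above 2-fold in both genotypes and 1 below, where 1.73% and 1.38% of all genes of that level were. Oxct1, which lets cells burn ketone bodies, stood at 1595 and 6080 mean normalized counts in WT with PBS and IL-4, and at 1583 and 6220 in NIK KO (1.68 ± 0.17 on the log2 scale in the mean of both genotypes, with the approximate error). Abcd2, a peroxisomal importer of very long chains, went from 270 to 912 in WT and from 143 to 912 in NIK KO (1.95 ± 0.56). Auh, of leucine breakdown, and Pex26, a peroxin, were at 1.03 ± 0.19 and 1.24 ± 0.24. Acss2, the cytosolic acetyl-CoA synthetase, was the gene below 2-fold (-1.27 ± 0.25). Ppargc1b, a coactivator of mitochondrial genes, was scarce with PBS, at 41.8 in WT and 52.6 in NIK KO, and stood at 312 and 266 with IL-4.

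With IL-4, 29 of the 3581 genes whose base mean was 1000 or more had a standard error over 0.4, Acsl1 among them, and the next highest was 0.30. The 5 with the highest error were Saa3 (1.3), Acod1 (1.13), mt-Atp6 (1.06), Gpr84 (1.00) and Clec4e (1.00). The genes ranked next to Acsl1 were Cd14 (0.64) above it and Riox2 (0.61) below it. The 29 were not tested for a shared function. With PBS 27 of 2938 genes of that base mean were over 0.4, the lowest of them at 0.417, and the next highest was 0.3995. No gap lay at 0.4 there, but a wider one lay above it. It ran from Apoe (0.82, ranked 25th) to Lyst (0.417, ranked 26th). Acsl1, at 0.395, was below that gap and under 0.4 with PBS.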
